A study of Danio rerio with 6 samples.

Results

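The visual arrestins of the zebrafish retina are 4 genes, the cone arrestins arr3a and arr3b and the rod arrestins saga and sagb. They were taken by gene name from the 14781 genes of the deposited table, and all 4 were found there and passed the filter on low values. Adult zebrafish retina was profiled by RNA-seq in 3 wild-type fish and in 3 homozygotes for the stl888 allele of samd7, written samd7-/- in the labels. All fish were males aged 3 months, bred by crossing heterozygotes with each other, and both retinas of 1 fish made 1 library. Neither genotype carried a transgene or a treatment according to the labels. Samd7 is a photoreceptor protein with a SAM domain that works with Polycomb repressors, and the series asks, by its title, how photoreceptors keep their identity.

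Arrestins end the light response. Light-activated opsin is phosphorylated by an opsin kinase, and arrestin then binds the phosphorylated opsin and keeps it from activating more transducin, the G protein that drives the phosphodiesterase. Mammals have a single rod arrestin, SAG, and a single cone arrestin, ARR3, and teleost fish keep duplicates of both. In zebrafish, arr3a is known as the arrestin of red and green cones, arr3b as that of blue and UV cones, and saga and sagb are expressed in rods. The 4 genes thus report on different photoreceptors of a bulk sample, in which fewer cells of a type and less RNA per cell cannot be told apart.

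Values are normalised read counts, which the authors obtained by dividing the reads of each gene by the size factor of the library. The libraries held 20186266 to 29117026 reads in genes. Differences between genotypes are log2 changes of value + 1, mutant minus wild type, tested with limma and adjusted by Benjamini-Hochberg over all 11335 genes that passed the filter (threshold 0.05). By this rule 202 genes (1.78%) were lower and 94 (0.829%) higher in the mutants. With library totals in place of size factors, 142 were lower and 2004 higher. That scaling set the median log2 change of all genes at 0.36 in place of 0.013. Less the median of all genes, which by construction hardly depends on the scaling, the log2 changes were -8.01 for arr3a, 0.73 for arr3b, -1.30 for saga and -1.20 for sagb. The samd7 transcript was at 4196, 4557 and 5186 in wild type and at 2471, 5121 and 3642 in the mutants, and so did not check the genotype labels. Mutant replicate 1 stood apart in rod genes, with rho at 410623 against 1490410 and 1229500 in mutant replicates 2 and 3, and wild-type replicate 1 stood apart in clock genes, whose values are given beside the cone arrestins. Of the markers of other cells, the 10 Müller glia genes summed to between 289672 and 306621 in wild type and between 314105 and 344674 in the mutants, without overlap. All 10 had a positive change (median 0.13), and 2 of them, crabp1a and icn, were called higher. The 8 ganglion cell genes summed to between 11640 and 17193 in wild type and between 21822 and 24600 in the mutants, without overlap. All 8 had a positive change (median 0.84), 1 was called higher, sncga, and 7 were higher at an unadjusted p of 0.05, against 9.38% of all genes tested. For the bipolar, amacrine, horizontal and blood or microglia lists the summed levels overlapped between the genotypes, and no gene was called by limma. By an unadjusted p of 0.05, 1 of 10 bipolar genes was lower and 1 higher, and 1 of 8 amacrine genes was lower and 2 higher. Of 6 horizontal cell genes 2 were lower, and of 5 blood or microglia genes none passed. All genes tested had 11.6% lower and 9.38% higher. DESeq2 called 1 amacrine and 1 horizontal cell gene lower, against 6.63% of all genes. It called 3 Müller glia and 3 ganglion cell genes higher, against 4.14% of all genes. The 9 pigment epithelium genes summed to between 13177 and 46915 and between 11000 and 61249, with the lowest totals in wild-type replicate 1 and mutant replicate 2. The 6 lens crystallin and membrane genes summed to at most 60.7 in any library. The part of other cells in the results below was not tested.

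The red and green cone arrestin arr3a fell to 0.437% of its wild-type mean in the mutants. It held normalised read counts of 239837, 202706 and 123364 in wild-type replicates 1, 2 and 3, and of 1437, 654 and 384 in mutant replicates 1, 2 and 3. The genotypes did not overlap, as was so for 14.8% of genes in this direction, and the highest mutant library lay far below the lowest wild-type library. Its mean fell 229-fold, from 188635 ± 59498 to 825 ± 547 (SD, n = 3 each), with a log2 change of -7.99 (SE 0.50, 95% interval -9.20 to -6.78, limma adjusted p = 0.00324). Only 4 of the 11335 genes tested had a more negative change, namely the green cone opsins (opn1mw1, opn1mw2, opn1mw3, opn1mw4). With 1 added to each value, genes of low wild-type level cannot show so large a fall. The change of opn1mw1 was itself set by this limit, at 528 ± 236 in wild type and 0 in every mutant library. The changes of opn1mw3 and opn1mw4 also depended on the added 1. In mutant replicates 1, 2 and 3 they were at 0, 2.09 and 0 and at 0, 0 and 8.46. In wild-type retina arr3a ranked between the 7th and the 21st most counted gene of a library and took 0.472 to 0.941% of its reads. In the mutants it ranked between 2331 and 5794. The mutant signal was low, with 1539, 625 and 454 reads counted as arr3a. Whether some of these were arr3b reads counted under the wrong paralog was not tested. The call of arr3a held in all 17 alternatives, each library left out in turn among them, with an adjusted p of at most 0.0318. In the authors' deposited table its log2 change was -7.84, with an adjusted p of 1.18e-61.

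The blue and UV cone arrestin arr3b was not lost. Its counts were 129675, 49336 and 40625 in wild type and 159345, 107053 and 71219 in the mutants. The genotypes overlapped, because wild-type replicate 1 lay above mutant replicates 2 and 3. The means were 73212 ± 49092 and 112539 ± 44318, and their difference missed the threshold (log2 change 0.74, SE 0.50, limma adjusted p = 0.452). The 95% interval ran from -0.47 to 1.95, so these libraries leave room both for a lower level and for one 3.86-fold higher. Without wild-type replicate 1 the log2 change was 1.25 (limma adjusted p = 0.104), the largest with a single library left out. Without wild-type replicate 3 it was 0.42 (0.692), and without mutant replicate 1 it was 0.45 (0.743). The authors' deposited table gave 0.62 with an adjusted p of 0.484.

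**Figure D1:**
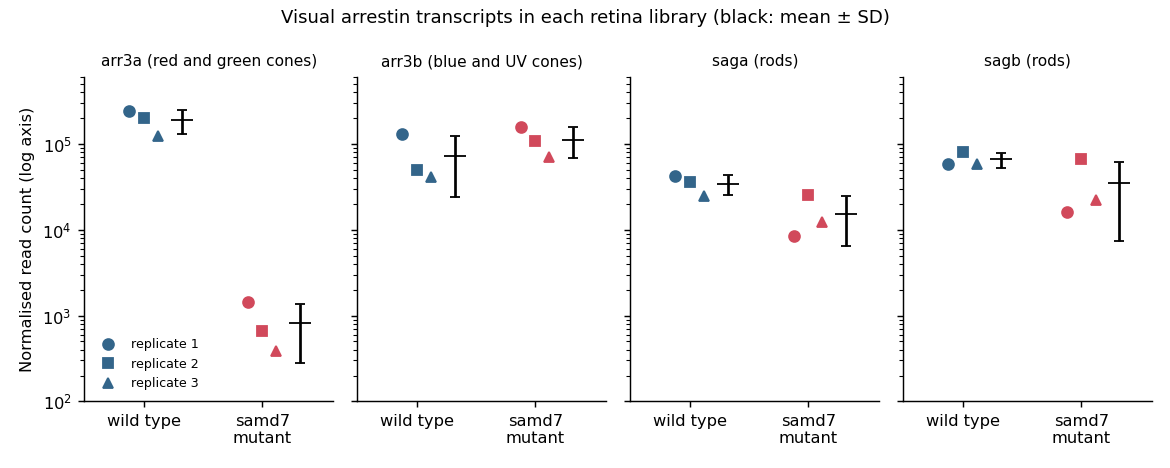
Normalised read counts (log axis) of the 4 visual arrestins in each library, with symbols for replicates and black marks for mean ± SD of 3 fish. The mutant libraries of arr3a lie between 384 and 1437, far below the wild-type libraries at 123364 to 239837, while the genotypes overlap for arr3b, saga and sagb.

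Of the cone arrestin counts, most came from arr3a in wild type and nearly all from arr3b in the mutants. Counts were not divided by transcript length, so the ratios below compare libraries and do not rank the genes by molecules. In wild type the ratio of arr3b to arr3a counts was 0.541, 0.243 and 0.329, and in the mutants it was 111, 164 and 185. Every mutant library lay above every wild-type library, and the mean log2 ratio, -1.51 ± 0.58 in wild type, was higher by 8.74 in the mutants, at 7.23 ± 0.39. The exact permutation test (two-sided) returned p = 0.1, the smallest that 3 against 3 can give, and 0.5 after adjustment over the 10 ratios computed. As a share of cone arrestin counts, arr3a made up 64.9, 80.4 and 75.2% in wild type and 0.894, 0.607 and 0.537% in the mutants. Shares of 1 sum are tied, so the rise of the arr3b share does not by itself show more arr3b. These shares also limit how many cone arrestin reads of the mutants could have been counted under the wrong paralog as arr3a, at most 0.894%.

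By normalised counts, the summed cone arrestins were lower in every mutant than in any wild-type library, the closest libraries being mutant replicate 1 and wild-type replicate 3. They were at 369512, 252042 and 163989 in wild type and at 160781, 107707 and 71604 in the mutants (exact two-sided permutation test, p = 0.1). As a percentage of all reads in genes the genotypes overlapped, at 1.45, 0.966 and 0.627% in wild type and 0.853, 0.498 and 0.347% in the mutants (exact permutation p = 0.2). The means of the normalised sums, 261848 ± 103112 and 113364 ± 44857, stood in a ratio of 2.31. Per count of gnat2, the transducin alpha subunit of all cones, the summed cone arrestins were at 1.28, 1.13 and 0.732 in wild type and 1.42, 0.980 and 0.705 in the mutants. The genotypes overlapped in this ratio (difference in mean log2 ratio -0.038, exact permutation p = 0.9). The transducin gene gnat2 itself fell from 245293 ± 37617 to 108361 ± 6098 (limma adjusted p = 0.0244), a call that was lost without wild-type replicate 2 (0.0923) or 3 (0.0587) or without mutant replicate 1 (0.113) or 3 (0.153).

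Set against the opsins of its own cells, arr3a was lower in the mutants as well, by less than its own level. The ratio of arr3a to the summed red and green opsins was 0.966, 0.326 and 0.151 in wild type and 0.0398, 0.00939 and 0.00659 in the mutants. The genotypes did not overlap, and the ratio was 26.8-fold lower in the mutants by the mean log2 ratio (difference -4.75, exact two-sided permutation p = 0.1, adjusted 0.5). The difference was -4.04 without wild-type replicate 1, -5.38 without wild-type replicate 3 and -5.53 without mutant replicate 1. The summed red and green opsins were lowest among wild-type libraries in replicate 1, at 248277 against 621540 and 817066. The red opsin opn1lw1 made up most of these opsins in the mutants, with 31783, 66010 and 53561 of sums of 36095, 69613 and 58337. In wild type opn1lw1 was at 30002, 207990 and 208775, so wild-type replicate 1 lay below every mutant library. Its change did not pass (log2 change -1.18, limma adjusted p = 0.448). The ratio of arr3b to the summed blue and UV opsins opn1sw2 and opn1sw1 was 0.375, 0.116 and 0.0763 in wild type and 0.181, 0.112 and 0.0594 in the mutants. Here the genotypes overlapped (difference -0.49, exact permutation p = 0.6), and without wild-type replicate 1 the difference was 0.18. The opsins themselves were 2.33-fold higher as a sum in the mutants. For all cone arrestins over all cone opsins, the ratio was 0.622, 0.240 and 0.122 in wild type and 0.175, 0.105 and 0.0569 in the mutants, with overlap (difference -1.37, exact permutation p = 0.2, adjusted 0.667).

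**Figure D2:**
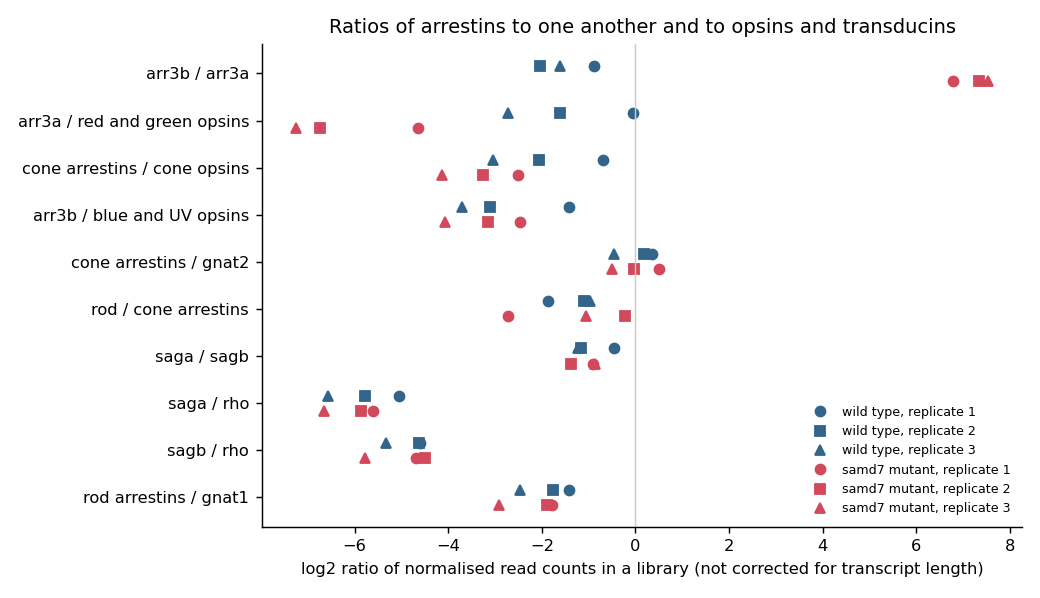
Log2 ratios of normalised read counts within each library for 10 pairs of genes or sums, with a symbol per replicate and a colour per genotype. The genotypes separate for arr3b over arr3a (-2.04 to -0.89 against 6.79 to 7.53) and for arr3a over red and green opsins, and overlap in the other 8 ratios.

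The rod arrestins had lower means in the mutants, and neither passed the test. For saga the counts were 42784, 36053 and 24861 in wild type and 8456, 25648 and 12232 in the mutants, of which only replicate 2 reached the wild-type range. The means were 34566 ± 9054 and 15445 ± 9035 (log2 change -1.28, SE 0.43, 95% interval -2.31 to -0.26 before adjustment, limma adjusted p = 0.165). For sagb the counts were 58612, 80988 and 58562 in wild type and 15905, 66066 and 22367 in the mutants. Again mutant replicate 2 lay within the wild-type range and the other 2 mutants lay below it. The means were 66054 ± 12933 and 34779 ± 27287 (log2 change -1.19, SE 0.52, 95% interval -2.43 to 0.057, limma adjusted p = 0.257). Without mutant replicate 2, sagb was called lower (log2 change -1.79, limma adjusted p = 0.0341, with 1.33% of genes called lower in that fit) and saga stood at the threshold (-1.73, adjusted p just above 0.05). Without mutant replicate 1 both changes were smaller, at -0.93 for saga (limma adjusted p = 0.366) and -0.76 for sagb (0.520). In the authors' deposited table saga passed (log2 change -1.16, adjusted p = 0.0435) and sagb did not (-0.93, adjusted p = 0.240), in a table where 6.3% of genes with an adjusted p were lower at that threshold. DESeq2 run here on recovered reads, so the same tool on the same reads, gave saga an adjusted p of 0.0434, with 6.63% of genes called lower. With edgeR neither passed (adjusted p = 0.189 for saga and 0.363 for sagb). Over the 17 alternatives, saga and sagb each passed in 1.

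The mutant fish differed from each other in both rod arrestins alike. The highest mutant library was 3.03 times the lowest for saga and 4.15 times for sagb, against 1.72 and 1.38 in wild type. The rod opsin rho, at 410623, 1490410 and 1229500 in the mutants, and the rod transducin gnat1, at 84384, 338717 and 259746, were also lowest in mutant replicate 1 and highest in replicate 2. In mutant replicate 3, however, saga and sagb lay nearer to replicate 1, and rho and gnat1 nearer to replicate 2. Per 1000 counts of rho, the wild-type libraries held 19.6 ± 9.84 counts of saga and the mutant libraries 15.9 ± 5.44, and for sagb the values were 35.7 ± 9.31 and 33.8 ± 13.8. The ratio of saga to rho was 0.0301, 0.0182 and 0.0106 in wild type and 0.0206, 0.0172 and 0.00995 in the mutants. That of sagb to rho was 0.0412, 0.0408 and 0.0249 in wild type and 0.0387, 0.0443 and 0.0182 in the mutants. Both ratios overlapped between the genotypes (exact two-sided permutation p = 0.7 and 0.8). The summed rod arrestins per count of gnat1 were 0.373, 0.295 and 0.182 in wild type and 0.289, 0.271 and 0.133 in the mutants, which overlapped as well (exact permutation p = 0.5).

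The genotypes overlapped in the ratio of the rod paralogs to each other. The ratio of saga to sagb was 0.730, 0.445 and 0.425 in wild type and 0.532, 0.388 and 0.547 in the mutants. The mean log2 ratios of -0.95 ± 0.43 and -1.05 ± 0.27 differed by less than the spread between fish (difference -0.097, exact two-sided permutation p = 0.8), and the sign of the difference turned without wild-type replicate 1 (0.15) or mutant replicate 2 (0.061). The share of sagb in rod arrestin counts was 57.8 to 70.2% in wild type and 64.6 to 72.0% in the mutants. In the RefSeq gene table the 4 arrestins lie on 4 different chromosomes, so neither pair of paralogs is a tandem copy.

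Over all 4 arrestins the counts summed to 470907, 369083 and 247412 in wild type and to 185142, 199421 and 106202 in the mutants, without overlap. As a percentage of all reads in genes, the arrestins took 1.85, 1.41 and 0.946% in wild type and 0.983, 0.923 and 0.515% in the mutants, which did overlap. The ratio of rod to cone arrestin counts was 0.274, 0.464 and 0.509 in wild type and 0.152, 0.852 and 0.483 in the mutants, with no common direction (exact two-sided permutation p = 1). The composition of the sum differed, with arr3b at 27.5, 13.4 and 16.4% of arrestin counts in wild type and 86.1, 53.7 and 67.1% in the mutants.

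Within each genotype both cone arrestins were highest in replicate 1 and lowest in replicate 3, and clock genes differed between the same libraries. The labels give no sampling times and do not say whether fish of the same replicate number share anything. The clock repressor nr1d1 (Rev-erb alpha) held 5588, 511 and 68.9 counts in the wild-type libraries, in the order of replicates 1, 2 and 3, and 784, 203 and 43.2 in the mutant libraries. The period gene per1b was at 12506, 5112 and 2494 and at 4126, 2797 and 894. The Bmal1 gene arntl1a went the other way, at 196, 2495 and 4003 and at 1784, 2439 and 3618. Of 15 clock genes, chosen after these values were seen, 6 had the order of the cone arrestins in both genotypes and 4 the opposite order. Over all 11335 genes tested, 5.23% had the first order and 5.02% the second. The rod arrestin saga had the first order in wild type only, and sagb in neither genotype. As ratios, saga to rho and the summed rod arrestins to gnat1 had the first order in both genotypes, and sagb to rho in wild type only. The ratios of cone arrestins to gnat2, of cone arrestins to cone opsins, and of arr3a and arr3b to their opsins had it in both genotypes. A clock score, the mean centred log2 level of 10 period, Rev-erb and PAR bZIP genes minus that of 5 Bmal and Clock genes, was 3.96, 0.16 and -2.03 in wild type and 0.44, -0.13 and -2.41 in the mutants.

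With that score as a covariate, a fit added after the values were seen, arr3b was called higher in the mutants (log2 change 1.17, limma adjusted p = 0.0199, with 1.54% of genes called higher in that fit). Over the 17 alternatives this was the only fit in which arr3b passed, and its adjusted p ranged from 0.0199 to 0.743. The change of arr3a was -7.67 with the covariate (adjusted p = 0.00461), that of saga -1.15 (0.235) and that of sagb -1.18 (0.327). The score was itself higher in wild type on average, so this fit does not fully separate it from the genotype.

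**Figure D3:**
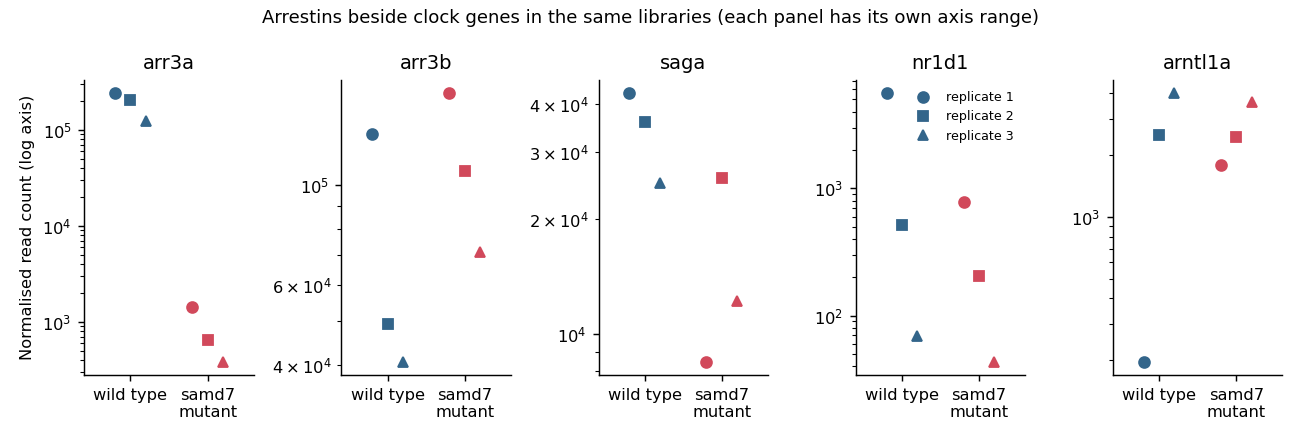
Normalised read counts (log axes, each panel with its own range) of arr3a, arr3b, saga and the clock genes nr1d1 and arntl1a in each library. In both genotypes replicate 1 is the highest for arr3a, arr3b and nr1d1 and the lowest for arntl1a, with nr1d1 between 43.2 and 5588.

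Of the genes whose products act with arrestin in shutting off the response, 1 passed the test. The list held opsin kinases, recoverins, which restrain those kinases, and the RGS9 complex, which speeds GTP hydrolysis by transducin. Of 12 that the table held, 11 were tested, 1 fell and none rose, against 1.78% and 0.829% of all genes tested. A negative change was seen in 9 of the 11, against 48.4% of all genes. The median log2 change was -0.99 against 0.013 over all genes tested. The 1 that fell was rgs9a, the RGS9 of the cone list, from 5408 ± 1734 to 1636 ± 357 (log2 change -1.70, limma adjusted p = 0.0388). That call was lost without wild-type replicate 2 (0.125) or 3 (0.0570) and without mutant replicate 1 (0.127), 2 (0.0651) or 3 (0.156). Its partner gnb5b was at 19910 ± 5667 and 9796 ± 873 (limma adjusted p = 0.0549). The recoverin gene zgc:73075, rcvrn3 in RefSeq, was at 48371, 30983 and 12866 in wild type and 6419, 4845 and 2070 in the mutants (log2 change -2.74, limma adjusted p = 0.0722). The cone opsin kinase grk7a was at 90238, 32114 and 22068 and at 11663, 7745 and 4914 (log2 change -2.39, limma adjusted p = 0.0849). Both were highest in replicate 1 and lowest in replicate 3 of each genotype, as the cone arrestins were. With the clock score as covariate both were called lower (limma adjusted p = 0.0165 for zgc:73075 and 0.00295 for grk7a). That fit called 379 of 11335 genes lower, against 202 in the main fit.

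The kinase paralog grk7b had a positive change that did not pass (732 ± 167 and 1079 ± 78.4, limma adjusted p = 0.116). The rod kinase grk1a was at 7032, 6499 and 7243 in wild type and at 1321, 6443 and 3270 in the mutants (limma adjusted p = 0.269), low in the same mutant fish as saga and sagb. At an unadjusted p of 0.05, limma had 5 of the 11 shut-off genes lower and 1, grk7b, higher, where 11.6% of all genes tested were lower and 9.38% higher. DESeq2 called 5 lower and none higher, against 6.63% and 4.14% of all genes, and edgeR 1 lower and none higher, against 1.38% and 0.803%.

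**Figure D4:**
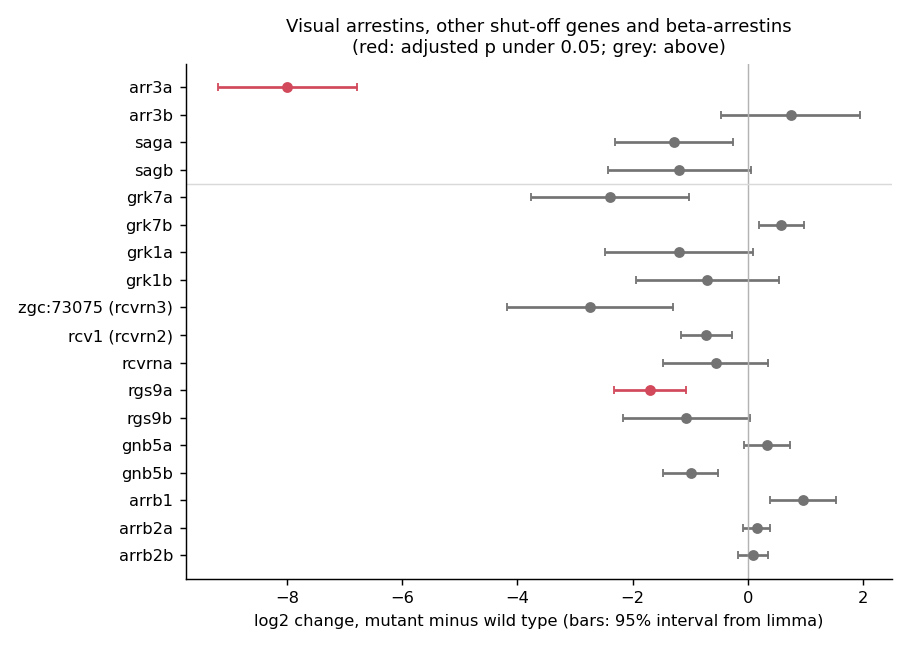
Log2 changes (mutant minus wild type) of the 4 visual arrestins, 11 other shut-off genes and 3 beta-arrestins, with 95% intervals from limma before adjustment. The arrestin arr3a at -7.99 and rgs9a at -1.70 are the genes past an adjusted p of 0.05, and the changes of arrb2a and arrb2b lie close to 0.

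The arrestins that are not visual did not share the change of arr3a. Of 11 beta-arrestin, alpha-arrestin and Vps26 genes that the table held, 9 were tested and none passed in either direction. At an unadjusted p of 0.05, 1 of the 9 was higher, against 9.38% of all genes. This was the beta-arrestin arrb1, which serves many receptors, at 221, 237 and 368 in wild type and 423, 649 and 522 in the mutants (log2 change 0.96, limma adjusted p = 0.0898). The genotypes did not overlap for arrb1, as was so for 13.3% of genes in that direction, and DESeq2 called it higher (0.0101), as did limma with library totals (0.0222), while edgeR called none of the 9. The changes of arrb2a (0.15) and arrb2b (0.085) were small.

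Genes of the same photoreceptors are given for comparison. The cone phototransduction list shares rgs9a, grk7a, grk7b, zgc:73075 and rcv1 with the shut-off list, and the rod list shares grk1a and rcvrna with it. Counts from these lists are therefore not separate, and the call of rgs9a is in both the shut-off and the cone count. Of 9 red and green cone genes 6 fell, with a median log2 change of -5.10, against 1.78% of all genes. Of 7 blue and UV cone genes 5 rose, with a median of 0.96, against 0.829%. Without wild-type replicate 2 these counts were 2 and 0, and the count of risers was at most 1 without wild-type replicate 3 or mutant replicate 1 or 3. Among those that fell, opn1mw1, opn1mw3 and opn1mw4 were below 10 in every mutant library. These green opsins passed the filter only through wild type, so their direction was fixed in advance. Of 18 tested cone phototransduction genes 6 fell and none rose (median -1.38), against 1.78% and 0.829% of all genes. At an unadjusted p of 0.05 the counts were 14 and 1, against 11.6% and 9.38%. With edgeR they were 6 and none, against 1.38% and 0.803%, and with DESeq2 14 and none, against 6.63% and 4.14%. Among those that fell were the exchanger slc24a2 (22577 ± 1552 to 6990 ± 609, limma adjusted p = 0.00324), the guanylate cyclase gc3 (10252 ± 2090 to 3571 ± 642, 0.0239) and the cyclase activator guca1d (6152 ± 1394 to 947 ± 424, 0.0244). These falls of 2.87- to 6.50-fold in gc3, slc24a2 and guca1d compare with 229-fold for arr3a. Without wild-type replicate 2 or 3 or mutant replicate 1 or 3, 1 or 2 of the cone genes were called, and slc24a2 was called in all 17 alternatives. Of 19 tested rod genes 1 fell, the rod factor nrl (408 ± 88.1 to 157 ± 32.7, limma adjusted p = 0.0408), with a median of -0.97 near the changes of saga and sagb. That call was lost without wild-type replicate 2 (0.134) or 3 (0.0936) or mutant replicate 1 (0.158) or 3 (0.178).

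The genes most like each arrestin were found by the root mean square difference of centred log2 values over the 6 libraries, among 8800 other genes with a mean count of at least 100. For arr3a they were the green opsin opn1mw1 (difference 0.97), the red opsin opn1lw2 (1.72), the neuronal pentraxin nptx2b (2.44), zgc:158445 (2.57) and the recoverin zgc:73075 (2.65). These differences were larger than for the other arrestins. The nearest gene, opn1mw1, was at 0 in every mutant library, so its closeness to arr3a depends on the 1 added to each value. The green opsins opn1mw2, opn1mw4 and opn1mw3 lay at ranks 10, 44 and 4860 from arr3a. For opn1mw4 and opn1mw3, at 0 in some mutant libraries, the distance depends on the added 1 as well. For arr3b they included kctd16b (0.22), pnp5a (0.27), the calcium sensor vsnl1a (0.28) and si:dkeyp-69e1.8 (0.29), with opn1sw2 and opn1sw1 at ranks 6882 and 7179. For saga they were zgc:158785 (0.13), irgq2 (0.21), the RGS9 paralog rgs9b (0.24), si:ch73-266o15.4 (0.25) and the opsin tmtops2a (0.26). For sagb they were phosducin pdca (0.19), the mitochondrial carrier slc25a23b (0.19), the guanylate cyclase gucy2f (0.25), rgs9b (0.26) and vps36 (0.26). The rod paralogs lay near each other, with sagb at rank 13 from saga and saga at rank 9 from sagb (difference 0.30). The cone paralogs lay far apart, with arr3a at rank 8795 of 8800 from arr3b and arr3b at rank 8450 from arr3a (difference 4.39). From saga and from sagb, arr3a lay at rank 8791, so its distance was not particular to the cone pair. These likenesses rest on 6 libraries whose genes share the same depth, and they are descriptions without a test.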

How the data were processed

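RNA (10 ng) was turned into cDNA with 12 amplification cycles and libraries had 15 PCR cycles, per the labels' protocols. STAR 2.7.2b, HTSeq 0.9.1, DESeq2 1.34.0, Trim Galore 0.6.1, R 4.1.3 and the build danRer10 are named in the submitters' processing notes. Strand and annotation settings were not given there.

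The signal values, as deposited, are gene counts that the authors divided by 1 size factor per library (0.863 to 1.18). All values were whole reads within a tolerance of 0.01, and whole reads were recovered. On these reads the edgeR quasi-likelihood test called 156 genes lower and 91 higher. The log2 fold changes and adjusted p-values of the authors, per the file headers, are quoted only where their table is named.

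Genotypes were compared with limma 3.58.1 (R 4.3.3, trend and robust) on log2(value + 1), for genes with at least 10 in at least 3 libraries. Alternatives were other scalings, filters, pseudocounts, edgeR 4.0.16, DESeq2 1.42.0, a replicate block, a clock covariate and each library left out. The fits were tested on simulated data. Ratios used exact permutation tests. The 4 genes, the lists and the tests were chosen with earlier results of these data known. Named genes were the arrestins, the genes of their ratios, up to 4 per list by p and the 5 most alike, of which 1 for arr3b is not reported here. Others named in the figure of shut-off genes, grk7b, grk1a, arrb2a, arrb2b and the clock genes were chosen after their values were seen. Of 157 list entries 142 were in the table, 12 by a RefSeq synonym (GRCz12tu). No 2 libraries of the same genotype were copies (chi-square per degree of freedom at least 58.7). Reads without molecular identifiers are not independent molecules.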

Additional observations from a re-analysis of the deposited data

How the results depend on the processing

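The direction of all 4 arrestins was the same in the 17 alternatives run. The log2 change of arr3a ranged from -8.50 to -7.55 with single libraries left out, that of arr3b from 0.42 to 1.25, that of saga from -1.73 to -0.93 and that of sagb from -1.79 to -0.76. Calls differed for arr3b with the clock covariate (1.17), for saga with DESeq2 (-1.16) and for sagb without mutant replicate 2 (-1.79). The number of genes called lower (202) was 30 with limma without trend, 751 with DESeq2, 379 with the clock covariate and 11 to 236 with single libraries left out. The number called higher (94) was 19, 469, 174 and 4 to 130 in the same fits and 2004 with library totals. With library totals 2 shut-off genes were lower and 2 higher and 1 cone gene was higher. With DESeq2 5 shut-off and 14 cone genes were lower. With single libraries left out, 0 to 3 shut-off genes were lower and 0 to 1 higher, 2 to 6 red and green cone genes were lower, 0 to 5 blue and UV cone genes were higher, 1 to 8 cone phototransduction genes were lower and 0 to 1 higher, and 0 to 2 rod genes were lower and 0 to 1 higher. The cause of these shifts was not tested. The difference in log2 ratio of arr3b to arr3a was 8.47 to 9.05 and that of arr3a to red and green opsins -5.53 to -4.04 with single libraries left out. Of the 8 ratios whose genotypes overlapped, that of cone arrestins to cone opsins kept its sign (-1.93 to -0.75). The other 7 changed sign in some of these fits, with ranges of -0.24 to 0.15 for saga to sagb, -0.57 to 0.68 for rod to cone arrestins, -0.97 to 0.18 for arr3b to its opsins, -0.29 to 0.21 for cone arrestins to gnat2, -0.62 to 0.13 for saga to rho, -0.39 to 0.25 for sagb to rho and -0.60 to 0.042 for rod arrestins to gnat1. The sign changes were 0.15 and 0.061 for saga to sagb, 0.086, 0.15 and 0.68 for rod to cone arrestins, 0.13, 0.036 and 0.21 for cone arrestins to gnat2 and 0.13 and 0.068 for saga to rho.

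Same-numbered libraries deviated from their genotype means with correlations of 0.19, -0.14 and 0.24 across genes, for replicates 1, 2 and 3. For libraries with different numbers the correlations ran from -0.34 to 0.17. The numbers were not taken as pairs because the labels do not say that they mark anything shared. With the replicate block the log2 changes were the same and no arrestin call changed (arr3a adjusted p = 0.00111, arr3b 0.101, saga 0.170, sagb 0.139), with 208 genes lower and 81 higher. The block gave calls to gnb5b (0.0451), zgc:73075 (0.00193) and grk7a (0.0123). Ratios per transcript or coding length were not run, since lengths were not used here. The lowest arrestin value of any library rested on 454 reads, of arr3a.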
